A study of Mus musculus with 6 samples.

Results

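The common gamma chain cytokine receptors are the surface receptors through which T cells sense interleukins 2, 4, 7, 9, 15 and 21, and they share the gamma chain encoded by Il2rg. The group was chosen by gene name and holds Il2rg, the beta chain Il2rb, which the receptors for interleukins 2 and 15 share, and the chains Il2ra, Il4ra, Il7r, Il9r, Il15ra and Il21r. All 8 genes were found among the 34245 genes of the deposited expression values.

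The values come from RNA-seq of 3 peripheral T-cell lymphomas (PTCL) of Dnmt3b+/- mice, which carry a knockout allele of Dnmt3b, a DNA methyltransferase that sets new methylation, on the FVB/N background. The knockout is carried in the germline and so by every cell type, and the tumors were taken from lymph nodes of terminally sick animals. Each tumor is a single library, numbered 1 to 3 as in the labels, so values are given per tumor, with the spread over tumors and with no test between groups. Control T cells and bisulfite sequencing of PTCL were not analysed here. Dnmt3b had 0.975 FPKM in tumor 1, compared with 1.55 in tumor 2 and 1.25 in tumor 3. The mean was 1.26 ± 0.287 (SD, n = 3), counted over all exons, so transcripts of the wild-type and the knockout allele are not distinguished.

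A receptor of this family forms when a cytokine joins the gamma chain to a partner chain that gives the receptor its specificity. The gamma chain carries the kinase JAK3 and signaling partner chains, such as the beta chain Il2rb, carry JAK1. These kinases activate STAT factors that enter the nucleus. In T cells the family is known for keeping naive and memory cells alive through interleukins 7 and 15, and for driving the growth of activated cells through interleukin 2.

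FPKM give the fragments of a gene per unit of exon length and per unit of library depth, so levels can be set side by side between genes. Between tumors levels also depend on the library scale, and the factors of other scales were up to 1.31-fold apart. The libraries were of 30726570 reads for tumor 1, 18969988 for tumor 2 and 20770928 for tumor 3. All 8 genes had reads in every tumor, and the fewest were 39, for Il7r in tumor 2. Intervals in the text are 95% intervals from the read counts and cover counting error only.

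The 8 chains spanned a wide range of levels, with Il2rb and Il2rg far above the rest. By mean FPKM over the 3 tumors the order was Il2rb, Il2rg, Il21r, Il4ra, Il7r, Il2ra, Il15ra and Il9r. Il2rb had a mean above that of 99.8% of all genes in the table, whereas Il9r, the lowest, stood above 69.0%. Of the 7 pairs of neighbors in this order, 3 kept their direction in every tumor, namely Il2rg above Il21r, Il21r above Il4ra and Il15ra above Il9r. The other neighbors did not differ beyond their spread. Il2rg was above Il2rb in tumor 1, Il7r was above Il4ra in tumor 3, Il2ra was above Il7r in tumors 1 and 2, and Il15ra was above Il2ra in tumor 3.

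**Figure D1:**
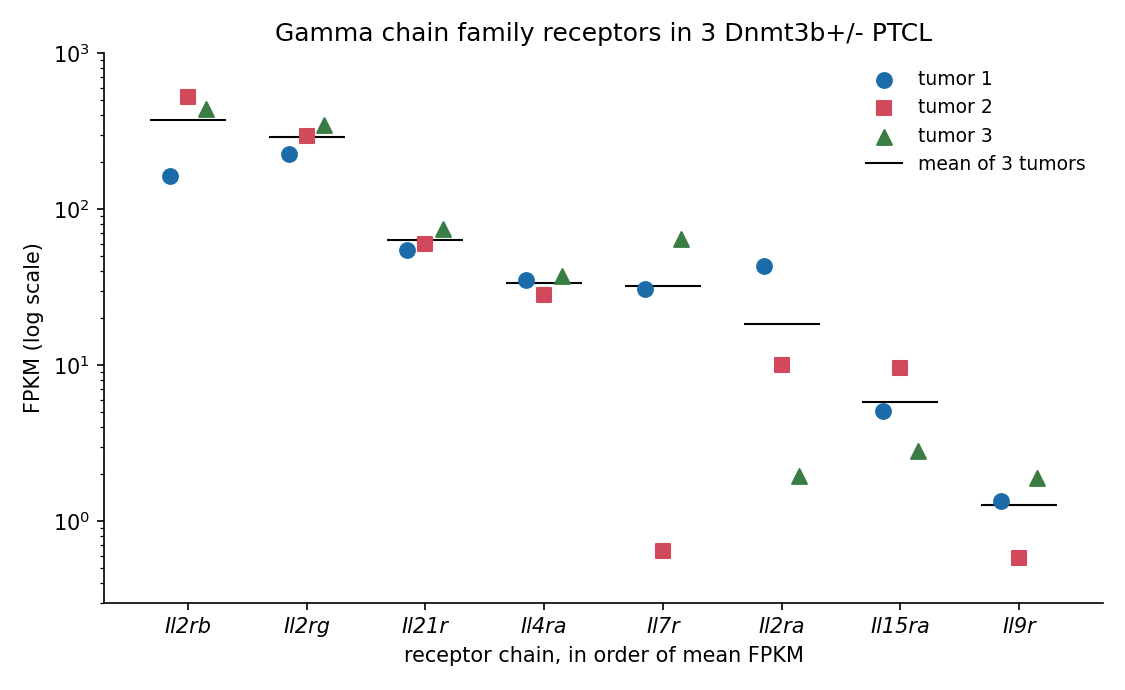
FPKM of the 8 receptor chains on a log axis, with a point for each of the 3 Dnmt3b+/- PTCL and a line at their mean, in order of the mean. Il2rb and Il2rg lie between 162 and 526 FPKM in every tumor, while Il7r covers 0.641 to 64.5 FPKM and Il2ra 1.96 to 43.2 FPKM.

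In the genome the 8 genes form 2 close pairs and 4 single loci. In mm10, Il2ra (chr2:11642807-11693193) is followed by Il15ra (chr2:11705290-11734317) on the same strand, with 12.1 kb between them. Il4ra (chr7:125552120-125579474) is likewise followed by Il21r (chr7:125603429-125633570), with a gap of 24.0 kb. No other gene of the table lies within either gap. Il7r (chr15:9506161-9529876) and Il2rb (chr15:78480553-78495066) share a chromosome but have 401 genes of the table between them. Il9r (chr11:32187541-32200279) and Il2rg (chrX:101264378-101268255) stand alone.

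The promoters of the widest and the narrowest varying chains are shown because Dnmt3b acts on DNA and methylation in mammals falls mainly on C before G. Each is the 250 bases before a transcription start of RefSeq (GRCm38.p6), written 5′ to 3′ on the strand of the gene, with CG in capitals. Il7r is at chr15:9529877-9530126 on the minus strand, and the others lie on the plus strand, Il2ra at chr2:11642542-11642791, Il4ra at chr7:125552021-125552270 and Il21r at chr7:125603179-125603428.
Il7r: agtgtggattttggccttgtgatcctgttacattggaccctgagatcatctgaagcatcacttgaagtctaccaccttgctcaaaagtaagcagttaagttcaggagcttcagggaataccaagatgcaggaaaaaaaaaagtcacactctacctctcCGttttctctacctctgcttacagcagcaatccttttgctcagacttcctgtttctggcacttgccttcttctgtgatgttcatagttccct
Il2ra: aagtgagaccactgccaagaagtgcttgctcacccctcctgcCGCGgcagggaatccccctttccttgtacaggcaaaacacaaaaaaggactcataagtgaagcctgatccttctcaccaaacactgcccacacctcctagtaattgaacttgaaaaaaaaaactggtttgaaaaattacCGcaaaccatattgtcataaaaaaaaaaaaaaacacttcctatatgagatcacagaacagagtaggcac
Il4ra: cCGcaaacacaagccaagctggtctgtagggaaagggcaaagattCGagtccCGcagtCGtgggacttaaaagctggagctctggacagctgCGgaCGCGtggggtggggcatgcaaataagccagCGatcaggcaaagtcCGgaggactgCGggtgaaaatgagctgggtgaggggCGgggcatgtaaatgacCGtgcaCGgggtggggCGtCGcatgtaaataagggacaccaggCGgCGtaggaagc
Il21r: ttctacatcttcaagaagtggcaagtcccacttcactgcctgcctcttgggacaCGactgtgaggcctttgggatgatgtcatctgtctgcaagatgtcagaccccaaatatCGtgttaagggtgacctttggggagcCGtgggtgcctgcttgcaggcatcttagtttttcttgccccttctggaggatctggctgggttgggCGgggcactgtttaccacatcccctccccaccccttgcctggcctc
The promoter of Il7r held 1 CG and that of Il2ra held 3, against 4 in Il21r and 17 in Il4ra. Over the 32851 promoters of the same length the median was 6, so Il4ra lay above it and the other 3 below. Of the 8 genes, 7 were matched in the promoter table, with the promoter of Il2rb not analysed here, and among those not printed Il2rg had 3 CG, Il9r had 5, and Il15ra had 2 and 12 at its 2 starts. The windows of Il4ra and of the upstream start of Il15ra run past the deposited start of the gene. That of the downstream start of Il15ra, with 12 CG, lies within the gene. The motif TTCNNNGAA, core letters that several STAT factors bind, was searched for and reads the same on both strands. Other spacings between TTC and GAA were not searched for. Of the 7 genes matched it occurred in the promoter of Il7r, beginning 142 bases before the start, and 7.02% of all promoters held it. A match of letters is not a binding site, and methylation of these promoters was not analysed here.

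Il2rg, the chain that every receptor of the family needs, was high in all 3 tumors. It had 225 FPKM in tumor 1 (95% interval 221 to 228), compared with 296 in tumor 2 (291 to 301) and 344 in tumor 3 (339 to 349). Its mean was 288 ± 60.1 FPKM (SD, n = 3), and tumor 3 was 1.53-fold above tumor 1. The gene shares exon bases with Gm20489, an overlapping gene on the same strand with 201, 202 and 246 FPKM in tumors 1, 2 and 3. Reads in the shared bases cannot be told apart, so the level of Il2rg is uncertain to that extent.

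Il2rb, the signaling beta chain of the interleukin 2 and 15 receptors, had the highest mean of the 8 chains. It had 162 FPKM in tumor 1, next to 526 in tumor 2 and 435 in tumor 3. The mean over tumors was 374 ± 189 FPKM (SD, n = 3). Tumor 1 stood apart from the others, and tumor 2 was 3.25-fold above it (95% interval 3.18 to 3.31). Without tumor 1 the ratio of the highest to the lowest tumor was 1.21. Together, Il2rb and Il2rg made up 69.5% of the summed FPKM of the 8 chains in tumor 1, 88.3% in tumor 2 and 81.0% in tumor 3. Markers of NK cells, which also carry Il2rb, summed to 20.7, 46.0 and 48.5 FPKM in tumors 1, 2 and 3 over 4 genes. Most of that sum was Eomes, which T cells also express, with 20.0, 39.5 and 45.0 FPKM. Ncr1, a defining NK marker, had 0.380, 0.205 and 0.125 FPKM, highest in the tumor with the least Il2rb, and Klra8 had no read in tumor 1. Klrb1c had 0.308, 5.77 and 3.38 FPKM, the order of Il2rb. The part of NK cells in the level of Il2rb was not tested.

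Il2ra, the alpha chain that gives the interleukin 2 receptor its high affinity, belonged largely to tumor 1. It had 43.2 FPKM in tumor 1 (95% interval 42.3 to 44.2), compared with 9.98 in tumor 2 (9.39 to 10.6) and 1.96 in tumor 3 (1.71 to 2.22). Each tumor was separated from the next by more than counting error, with tumor 1 4.33-fold above tumor 2 and tumor 2 5.10-fold above tumor 3. Between tumors 1 and 3 the ratio was 22.1 (95% interval 19.4 to 25.3), and tumor 1 held 78.4% of the summed FPKM. The mean of 18.4 ± 21.9 FPKM (SD, n = 3) thus rests on tumor 1, without which it was 5.97. In bulk samples such as these, fewer cells of a type and less RNA per cell cannot be told apart.

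Markers of other cells that can carry Il2ra also differed between the tumors. Of 5 regulatory T cell markers, 4 were highest in tumor 1, as 49.8% of all genes were, and the list summed to 59.8, 26.5 and 26.8 FPKM in tumors 1, 2 and 3. By the mean over tumors the most abundant gene was Tnfrsf18, the 1 exception, highest in tumor 2 with 24.8 FPKM. In tumor 1 it was Ctla4, with 34.0, 0.339 and 4.46 FPKM in tumors 1, 2 and 3. Ikzf2 and Il10 were, like Ctla4, highest in tumor 1 and lowest in tumor 2. Foxp3, which defines the lineage, had 5.12, 1.07 and 3.32 FPKM, so tumor 3 had more Foxp3 than tumor 2 but less Il2ra. Macrophage and monocyte markers had the same order of tumors as Il2ra in 5 of 6 genes, with sums of 267, 90.3 and 33.0 FPKM and Lyz2 the most abundant at 215, 33.1 and 20.3. That order, tumor 1 above 2 above 3, was found in 21.6% of the 14689 genes with a mean FPKM above 0.2. The part of these cells in the level of Il2ra was not tested.

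Il15ra, which binds interleukin 15 and can present it to neighboring cells, was low in comparison with Il2rb. It had 5.11 FPKM in tumor 1, compared with 9.54 in tumor 2 and 2.82 in tumor 3. The mean over tumors was 5.82 ± 3.42 FPKM (SD, n = 3). Tumor 2 was 3.39-fold above tumor 3 (95% interval 2.94 to 3.91), a ratio that became 1.81 between tumors 1 and 3 when tumor 2 was left out and 1.87 between tumors 2 and 1 when tumor 3 was left out. Although Il15ra lies beside Il2ra, the neighbors did not keep a fixed ratio. Il2ra was 8.46 times the FPKM of Il15ra in tumor 1, 1.05 times in tumor 2 and 0.695 times in tumor 3. The interval of the ratio in tumor 2, 0.953 to 1.15, includes equal levels.

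Il7r, the alpha chain of the interleukin 7 receptor and a marker of naive and memory T cells, varied most of the 8 chains by the ratio of the highest to the lowest tumor. It had 30.7 FPKM in tumor 1 (95% interval 29.6 to 31.8), compared with 0.641 in tumor 2 (0.456 to 0.876) and 64.5 in tumor 3 (62.6 to 66.5). Tumor 2 was thus nearly devoid of Il7r, with 39 reads against 3025 in tumor 1 and 4298 in tumor 3. The ratio of tumor 3 to tumor 2 was 101 (95% interval 73.5 to 142), and that of tumor 1 to tumor 2 was 47.9 (34.9 to 67.5). With 1 FPKM added to each value the ratio of tumor 3 to tumor 2 was 39.9. Without tumor 2 the remaining tumors differed 2.10-fold. The mean was 31.9 ± 31.9 FPKM (SD, n = 3), equal to its own spread, and 15.7 without tumor 3. By the SD relative to the mean Il2ra varied more, at 119%. In tumor 2, Il7r stood above 65.1% of the genes of the table, against 98.8% in tumor 3.

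Il9r, the alpha chain of the interleukin 9 receptor, had the lowest mean of the group but the same order of tumors as Il7r. It had 1.34 FPKM in tumor 1, compared with 0.575 in tumor 2 and 1.90 in tumor 3. The reads behind these values numbered 204, 54 and 195. Over the tumors the mean was 1.27 ± 0.664 FPKM (SD, n = 3). Tumor 3 was 3.30-fold above tumor 2 (95% interval 2.43 to 4.55), and without tumor 2 the ratio of the others was 1.41. With 1 FPKM added to each value the ratio was 1.84, below 2-fold.

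Markers of B cells, which are common in lymph nodes, moved with Il7r and Il9r. All 5 B cell markers used were lowest in tumor 2. Of them, 4 shared the order of Il7r, tumor 3 above 1 above 2, which Il4ra also had by unscaled FPKM. That order was found in 8.07% of the 14689 genes. The other order with tumor 2 lowest, tumor 1 above 3 above 2, was found in 28.2%. The B cell markers summed to 52.3, 12.3 and 94.7 FPKM in tumors 1, 2 and 3, with Cd79a the most abundant at 23.1, 7.31 and 49.0 FPKM. The genes were from 4.80-fold apart, for Pax5, to 13.3-fold apart, for Ms4a1, which is more than Il9r at 3.30-fold and less than Il7r at 101-fold. The CD8 T cell markers Cd8a and Cd8b1 were also lowest in tumor 2, with summed values of 693, 288 and 661 FPKM. The part of these cells in the levels of Il7r, Il9r and Il4ra was not tested.

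Il4ra and Il21r, neighbors on chromosome 7, varied least of the 8 chains by unscaled FPKM. Il4ra, the alpha chain of the interleukin 4 and 13 receptors, had 35.0 FPKM in tumor 1, next to 28.1 in tumor 2 and 37.4 in tumor 3. Its mean was 33.5 ± 4.84 FPKM (SD, n = 3), with tumor 3 1.33-fold above tumor 2. Il21r, the private chain of the interleukin 21 receptor, had 54.2 FPKM in tumor 1, compared with 59.7 in tumor 2 and 74.7 in tumor 3. Its mean was 62.9 ± 10.6 FPKM (SD, n = 3), with tumor 3 1.38-fold above tumor 1. These differences are larger than counting error but of the size that a change of library scale can turn. When the tumors were scaled to Cd3d, Cd3e and Cd3g, with factors of 1.21, 0.919 and 0.923, tumor 1 became the highest for Il4ra and tumor 2 the lowest for Il21r. The ratio of the highest to the lowest tumor was then 1.17 for Il2rg, 1.26 for Il21r and 1.64 for Il4ra. After rescaling to equal sums it was 1.29, 1.16 and 1.37, so Il4ra varied most of these 3 chains in both. With factors that set the median ratio of all genes equal between the tumors it was 1.75, 1.57 and 1.36. Il4ra then varied least of the 3, as it did without scaling. Il4ra contains exon bases shared with Gm44876 on the opposite strand, which had 11.8, 4.80 and 8.91 FPKM, and whether the counting used strand is not given in the sources used here.

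Against all genes, the group held both steady and widely varying members. The highest tumor was at least 2-fold above the lowest for 5 of the 8 chains, Il2ra, Il2rb, Il7r, Il9r and Il15ra, and for 42.7% of the 14689 genes with a mean FPKM above 0.2. The count was 3 without tumor 2, when the share of all genes was 24.1%. Without tumor 1 the count was 4 and the share of all genes 23.0%. The median ratio of the highest to the lowest tumor was 3.27 over the 8 chains and 1.81 over all genes. The highest tumor had more than 2.00 times the FPKM of the others together for 2 chains, Il2ra with 78.4% of the sum in tumor 1 and Il7r with 67.3% in tumor 3, and for 9.82% of all genes. Il7r lies close to that limit, and the count was 1 when the tumors were rescaled to equal sums or to the CD3 genes.

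**Figure D2:**
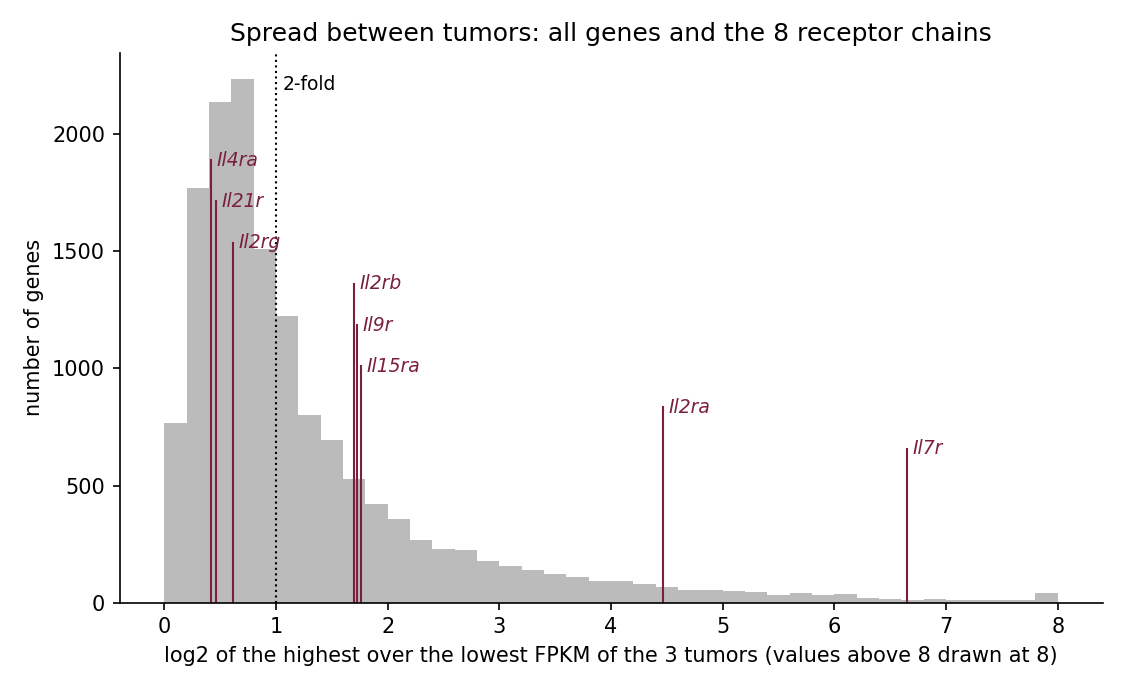
Histogram of the ratio of the highest to the lowest of 3 tumors, on a log2 axis, for 14689 genes, with the 8 receptor chains as labelled lines whose heights carry no value. Il7r has a larger ratio than 99.3% of the genes and Il2ra than 96.4%, while Il4ra exceeds 18.2%.

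In the histogram of ratios the chains fell into 3 bands. Il7r and Il2ra lay in the upper tail, above 99.3% and 96.4% of the genes. Il15ra, Il9r and Il2rb lay together, above 78.9%, 78.2% and 77.8%. Il2rg, Il21r and Il4ra lay in the lower part, above 32.8%, 22.0% and 18.2%, so that 3 of the 4 chains with the highest means were also the steadiest.

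Tumor 3 was the highest for more of the chains than the other tumors were. Il2rg, Il4ra, Il7r, Il9r and Il21r were highest there, 5 of the 8 chains, in contrast to 15.0% of the 14689 genes. Tumor 2 was highest for Il2rb and Il15ra and for 35.2% of all genes, and tumor 1 was highest for Il2ra and for 49.8%. The count for tumor 3 was 4 after rescaling to equal sums or to the CD3 genes, where Il4ra was highest in tumor 1. The share of all genes then fell to 8.83% and 7.91%. With factors that set the median ratio of all genes equal between the tumors the count stayed at 5 and the share of all genes rose to 21.8%. Between tumors 2 and 3 alone, 5 chains and 43.1% of all genes were higher in tumor 3. Between tumors 1 and 3 alone, 6 chains and 31.9% of all genes were higher in tumor 3.

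For each pair of tumors, the chains at least 2-fold apart were counted in both directions. Tumor 1 was that far above tumor 2 for 3 chains, Il2ra, Il7r and Il9r, and for 18.8% of all genes. Tumor 2 exceeded tumor 1 in this way for Il2rb only, 1 chain, and for 12.2% of all genes. Il2ra was the 1 chain for which tumor 1 was 2-fold above tumor 3, which held for 19.3% of all genes. The reverse, tumor 3 above tumor 1, held for the 2 chains Il2rb and Il7r and for 4.75% of all genes. Between tumors 2 and 3, Il2ra and Il15ra were the 2 chains higher in tumor 2, with 16.2% of all genes, and Il7r and Il9r the 2 chains higher in tumor 3, with 6.85%. Il2rg, Il4ra and Il21r were not 2-fold apart in any pair.

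Ratios within a tumor do not depend on the scale of the library. They are ratios of RNA over all cells of a bulk sample, so they do not show the makeup of the receptors on any cell type. Those to Il2rg also carry the uncertainty from the bases shared with Gm20489. Il21r kept the most even ratio to Il2rg, with 0.241 in tumor 1, 0.202 in tumor 2 and 0.217 in tumor 3, 1.20-fold apart. The ratio of Il4ra to Il2rg was 0.156, 0.0948 and 0.109 in tumors 1, 2 and 3, and thus 1.64-fold apart. Il2rb was below Il2rg in tumor 1, at 0.720 times its FPKM, and above it in tumors 2 and 3, at 1.78 and 1.26 times. Il2ra and Il7r covered a much wider range. Il2ra was 0.192 times the FPKM of Il2rg in tumor 1, 0.0337 times in tumor 2 and 0.00568 times in tumor 3, with a mean of 0.0773 that was 0.0197 without tumor 1. Il7r was 0.137 times Il2rg in tumor 1, 0.00217 times in tumor 2 and 0.187 times in tumor 3, with a mean of 0.109 that was 0.0694 without tumor 3. In tumor 2, therefore, Il2rg exceeded Il7r 462-fold.

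**Figure D3:**
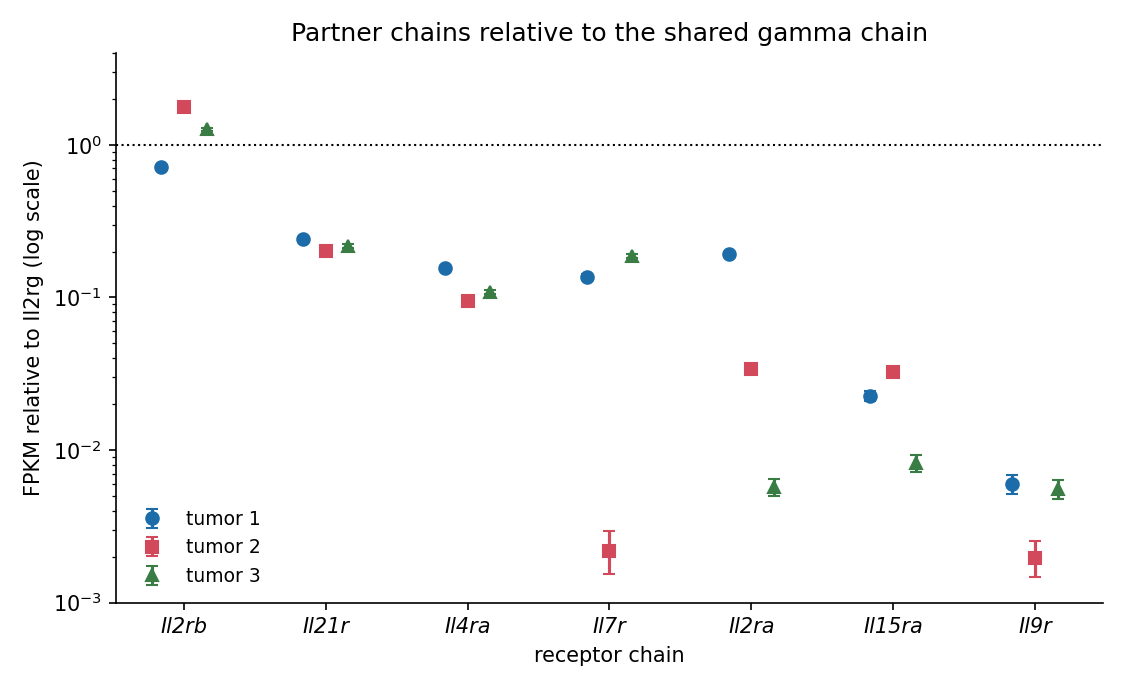
FPKM of 7 chains relative to Il2rg in the same tumor, on a log axis, with 95% intervals from the read counts (counting error only) where they are wider than the point, and a dotted line at equal levels. Il21r stays between 0.202 and 0.241 of Il2rg, whereas Il7r falls to 0.00217 in tumor 2 and Il2ra to 0.00568 in tumor 3.

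For interleukin 2 and 15 receptors, the alpha chains can be set against Il2rb, which they share. Il2ra was 0.267 times the FPKM of Il2rb in tumor 1, 0.0190 times in tumor 2 and 0.00450 times in tumor 3. Il15ra was 0.0316, 0.0182 and 0.00648 times Il2rb in tumors 1, 2 and 3. Tumor 1, with the least Il2rb, thus had the most RNA of either alpha chain relative to Il2rb.

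RNA of the cytokines that bind these receptors was scarce in the same tumors. None of the 6 ligand genes reached 1 FPKM in any tumor apart from Il4, with 3.50 FPKM in tumor 1. Il4 had 132 reads in tumor 1, none in tumor 2 and 2 in tumor 3, so it was at least 27.2-fold higher in tumor 1 than in tumor 2, where 3 reads are the limit that a count of 0 allows. Il15, the ligand of Il15ra and Il2rb, was even across the tumors at 0.446, 0.396 and 0.405 FPKM. Il2, the ligand of Il2ra, had 9, 0 and 1 reads, and Il7, the ligand of Il7r, had 32, 7 and 10. Il21, the ligand of Il21r, had 59, 1 and 30 reads, and Il9, the ligand of Il9r, had none in any tumor. Il4 was thus highest in tumor 1, the tumor with the most Il2ra, while for Il2 a difference between tumors 1 and 3 was not detectable at this depth. Mast cell and basophil markers, of cells that can make Il4, summed to 24.8, 1.25 and 4.08 FPKM over 5 genes, of which 4 were highest in tumor 1, in comparison with 49.8% of all genes, and Ms4a2 was highest in tumor 3. Their most abundant gene was Mcpt4, with 14.8 FPKM in tumor 1, no read in tumor 2 and 1.36 FPKM in tumor 3, and Fcer1a had no read in tumors 2 and 3. Markers of group 2 innate lymphoid cells, another source of such cytokines, summed to 9.16, 2.45 and 4.94 FPKM over 4 genes, with Gata3, which T cells also express, the most abundant. The part of these cells in the level of Il4 was not tested.

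Some members also pair with chains outside the gamma chain family. Il7r pairs with Crlf2 in the receptor for thymic stromal lymphopoietin, and Crlf2 had 8.10 FPKM in tumor 1, compared with 20.3 in tumor 2 and 10.8 in tumor 3. Crlf2 was thus highest where Il7r was lowest, and its ratio to Il7r was 31.7 there, compared with 0.264 in tumor 1 and 0.167 in tumor 3. Il4ra pairs with Il13ra1 in the receptor for interleukins 4 and 13, and Il13ra1 had 1.44, 0.256 and 0.311 FPKM in tumors 1, 2 and 3. Il13ra1 was 5.63-fold higher in tumor 1 than in tumor 2 (95% interval 3.45 to 9.73), while Il4ra was 1.25-fold higher.

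The kinases and STAT factors downstream of the receptors were present in every tumor and varied less than the chains did, with median ratios of the highest to the lowest tumor of 1.66 for JAK and 1.33 for STAT genes. None of the 4 JAK genes was 2-fold apart between tumors, with Jak1 close to that limit at 1.98-fold, in comparison with 42.7% of all genes, whose median ratio was 1.81. Jak3, which binds the gamma chain, had 48.4, 50.2 and 37.5 FPKM in tumors 1, 2 and 3. Jak1, which binds signaling partner chains such as Il2rb, had 64.3, 117 and 128 FPKM, lowest in tumor 1 as Il2rb was. Of 6 STAT genes 1 was 2-fold apart, Stat4 with 19.9, 12.9 and 30.5 FPKM, which is better known for interleukin 12 signaling. Stat5a and Stat5b, which act below interleukins 2, 7 and 15, had 5.90, 4.52 and 5.02 FPKM and 13.7, 10.8 and 12.9 FPKM. Stat6, which acts below Il4ra, had 23.9, 23.7 and 25.5 FPKM and was 1.07-fold apart, less than Il4ra at 1.33-fold.

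Inhibitors and target genes of the pathway were spread more widely than the kinases and STAT factors, though little more than all genes. Of 10 inhibitors 5 were 2-fold apart, with a median ratio of 2.21, and of 12 targets 6 were, with a median ratio of 2.01, in comparison with 42.7% and a median ratio of 1.81 for all genes. Cish, an inhibitor that STAT5 induces, had 8.49, 6.56 and 1.88 FPKM in tumors 1, 2 and 3, the order of Il2ra and of 21.6% of all genes. Socs2, also induced by STAT5, had that order too, with 10.2, 5.80 and 0.642 FPKM. Socs1 had 39.3, 54.0 and 14.0 FPKM and Gzmb, the gene of the cytotoxic protease granzyme B, had 463, 702 and 134 FPKM. Both were highest in tumor 2 and lowest in tumor 3, which is the order of Il15ra and of 18.3% of all genes. Ptpn6, a phosphatase that dampens receptor signaling, had 65.0, 187 and 125 FPKM, the order of Il2rb and of 17.0% of all genes. Socs3 was 7.01-fold apart, and the targets Osm and Pim1 were 4.94-fold and 2.49-fold apart. These 3 genes were highest in tumor 1 and lowest in tumor 2, an order that none of the 8 chains had and that 28.2% of all genes had. The remaining targets 2-fold apart were Prf1, at 2.23-fold, and Pim2, with the order of Il2rg, Il21r and 6.90% of all genes, and Ccnd2, with the order of Il7r and 8.07%. Prf1 was lowest in tumor 1, unlike Gzmb. Bcl2, a survival gene that interleukin 7 maintains in T cells, had 55.7, 54.7 and 73.5 FPKM. Tumor 2 was close to tumor 1 in Bcl2 and 47.9-fold lower in Il7r, and a link between these genes was not tested. Of 6 adaptor genes 1 was 2-fold apart, Gab2.

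**Figure D4:**
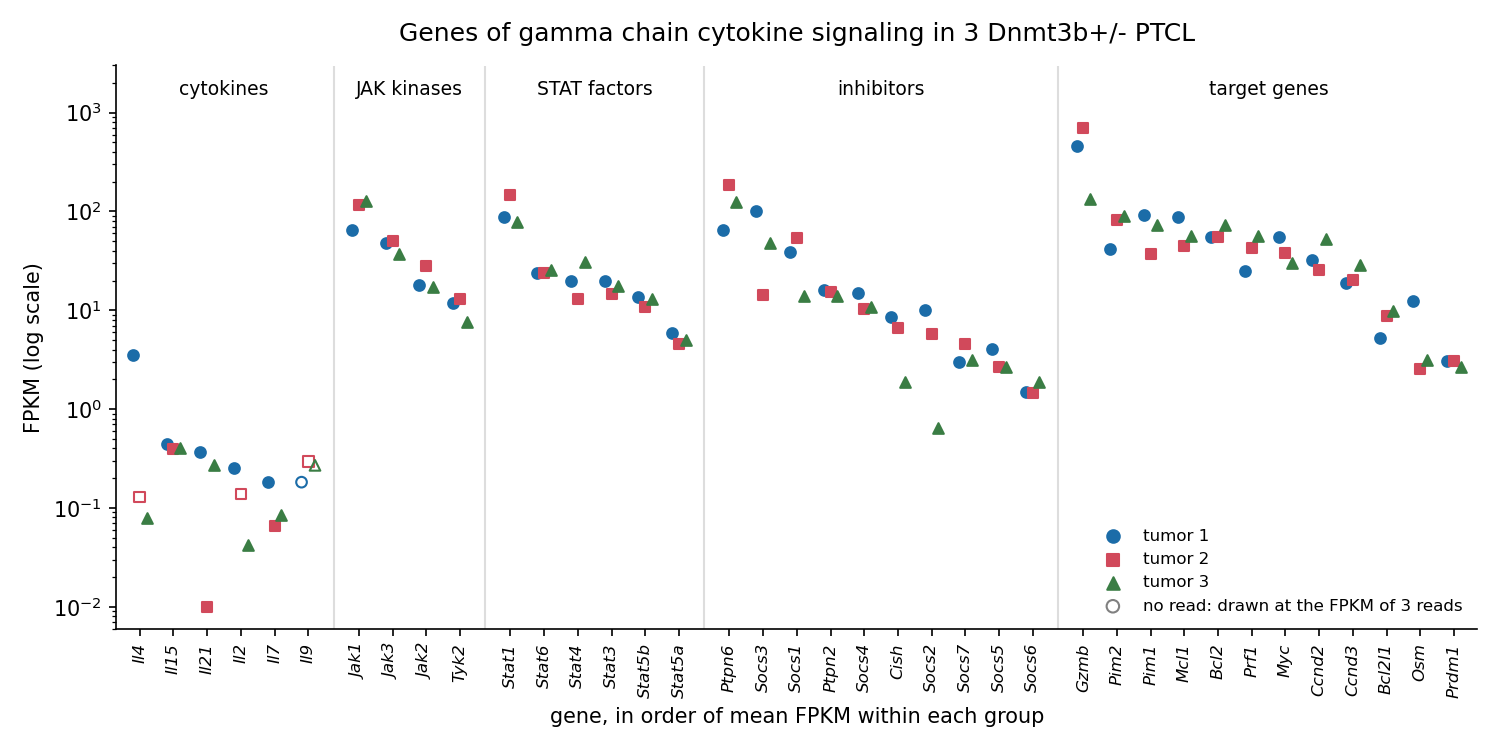
FPKM of the cytokines, JAK kinases, STAT factors, inhibitors and target genes of gamma chain signaling on a log axis, with a point per tumor and open points, drawn at the FPKM of 3 reads, where no read was found. The 4 JAK genes lie between 7.64 and 128 FPKM in every tumor, while no cytokine but Il4 in tumor 1, with 3.50 FPKM, reaches 1 FPKM.

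Cytokine receptor genes that do not use the gamma chain were spread in a similar way to the 8 chains. Of 27 such genes, 22 had a mean FPKM above 0.2, and 17 of these were 2-fold apart between tumors, in comparison with 42.7% of all genes. The median ratio of the highest to the lowest tumor over the 27 was 3.35, next to 3.27 for the 8 chains. Their levels were lower, with a median of the mean FPKM of 5.57 next to 32.7 for the 8 chains and 3.70 over all genes. Tumor 3, which was highest for 5 of the 8 chains, was highest for 3 of the 27 and for 15.0% of all genes.

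The patterns of the 8 chains over the tumors were compared with those of the 11190 candidate genes whose mean FPKM exceeded 1, by the largest difference in log2 FPKM relative to each gene's own mean. For Il7r no gene lay within a log2 difference of 0.1 and the nearest was Rasgrf2, at 0.11, with 1.24, 0.0228 and 2.42 FPKM in tumors 1, 2 and 3. For Il2ra 1 gene did, Gm20412 on the same chromosome, with 21.6, 4.75 and 0.989 FPKM. For Il2rb the nearest gene was AC140477.3 and 11 genes lay within 0.1, for Il15ra it was Gm45507 and also 11, and for Il9r it was Mmp14 and 7. The steady chains had many like genes, with 108 for Il2rg and Limd1 the nearest, 140 for Il21r and Cstf2 the nearest, and 262 for Il4ra and Rttn the nearest. With a mean FPKM above 5 as the limit, 3 of the 8 nearest genes stayed the same, those of Il2ra, Il2rg and Il21r. With 3 tumors such a likeness is a description only.

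T cell markers differed less between the tumors than Il2ra and Il7r did. None of the 7 T cell markers was 2-fold apart, in comparison with 42.7% of all genes. The T cell markers summed to 601, 702 and 717 FPKM in tumors 1, 2 and 3, with Lck the most abundant. Scaled to the CD3 genes among them, the ratio of the highest to the lowest tumor was 28.9 for Il2ra, 101 for Il7r and 2.47 for Il2rb, next to 22.1, 101 and 3.25 unscaled. Genes of T cell subsets differed more, with Cd8a 2.12-fold, Cd8b1 2.67-fold and Cd4 6.63-fold apart. Cd4 had 28.4, 4.28 and 8.22 FPKM, highest in the tumor with the most Il2ra. Tissue that is not lymphoid differed as well. Pancreatic acinar genes summed to 70.5, 386 and 0.603 FPKM over 6 genes, with Ctrb1 the most abundant and without a read in tumor 3, the order of tumors of Il15ra in all 6, which 18.3% of all genes had. Of the fibroblast markers 5 of 6 had that order, Dcn being highest in tumor 1, and the list summed to 10.5, 42.6 and 0.353 FPKM, with Col1a1 the most abundant and no read of Pdgfra in tumor 3. Neutrophil markers summed to 35.9, 1.30 and 14.8 FPKM over 4 genes, mostly S100a9, with Ly6g and Mpo at most at 1 read, and were lowest where Il7r was lowest. Dendritic cell markers summed to 11.1, 6.92 and 4.03 FPKM over 6 genes, with Itgax the most abundant. The part of all these cells in the levels of Il15ra, Il7r and Il2ra was not tested.

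**Figure D5:**
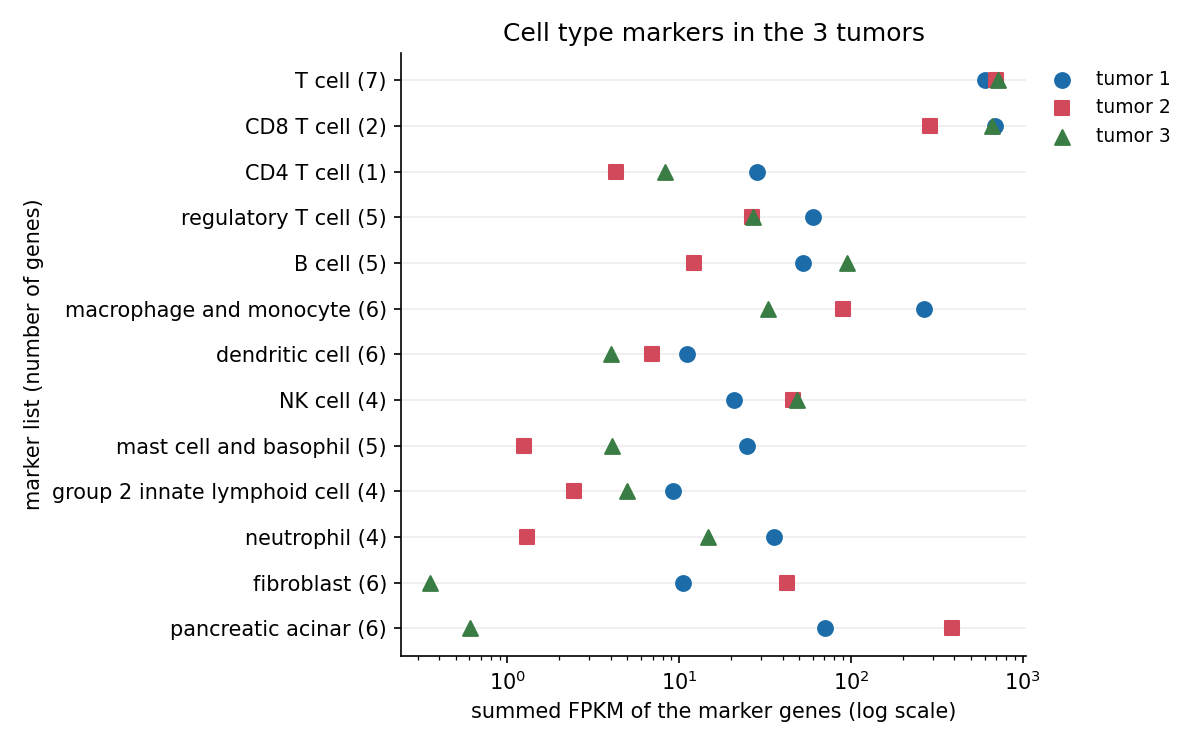
Summed FPKM of 13 cell type marker lists in the 3 tumors on a log axis, with the number of genes of each list in brackets. T cell markers stay between 601 and 717 FPKM, while B cell markers fall to 12.3 FPKM in tumor 2 and pancreatic acinar genes to 0.603 FPKM in tumor 3.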

How the data were processed

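RNA-seq was measured in 3 Dnmt3b+/- PTCL. Per the study's methods, STAR was run against mm10 and SeqMonk gave the deposited FPKM, linear values that the authors did not pool; versions of these tools are not given in the sources used here. The authors' DESeq2 comparison with control cells and 3 bisulfite sequencing samples were not used here. No value column remained unmapped (0 columns).

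The members and gene lists were chosen with earlier results of these data known. Genes named are the members, genes that share exon bases with them, the nearest gene in pattern to each member, and Dnmt3b. Genes of the pathway and marker lists are also named, in order of level or 2-fold apart. A planned marker gene was left out of its list and is not reported here. Of repeated symbols, 46 entries other than the most highly expressed were dropped. Exon lengths came from GENCODE M21 and matched 99.6% of the genes. Genes lacking reads are written as 0.9 read, which gave the depth, and 92.1%, 92.2% and 92.3% of the values of tumors 1, 2 and 3 then came out as whole reads within 0.01 read. Reads of Il2rb needed the exons within its deposited start and end, and those of Il7r the nearest length that gave whole reads, so the reads of Il7r are inferred. Genes lacking reads made up 42.3%, 45.9% and 48.3% of the tables of tumors 1, 2 and 3, and 3 reads are the limit that a count of 0 allows.

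Levels have exact Poisson intervals and ratios exact intervals from the binomial distribution (Clopper-Pearson), at 95%. With a single group no test was made. Protein sequences were not analysed here. The alternatives were other library scales, a fold of 3, a share of 50%, pseudocounts of 1 and 0.1, other limits on low values, summed repeats and each tumor left out. The count of chains highest in tumor 3 and its alternatives were added after the data had been seen. The steps were tested on simulated data. Tables were handled in Python 3.11 with pandas 2.3.3, intervals came from SciPy 1.17.1, arrays from NumPy 2.4.6 and figures from matplotlib 3.10.9.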

Additional observations from a re-analysis of the deposited data

How the results depend on the processing

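No paired analysis was possible because the RNA-seq and bisulfite samples share replicate numbers but hold values of different kinds, and no test was made. The number of chains 2-fold apart, 5, was between 3 and 4 with 1 tumor left out, and 4 with a pseudocount of 1. The number of chains with over 2.00 times the FPKM of the others together in 1 tumor, 2, was 1 after rescaling to sums of 1000000, 1 after scaling to the CD3 genes, and between 3 and 4 with 1 tumor left out, where that limit is the same as 2-fold. The number of neighbors in the order of levels that kept their direction, 3, was between 3 and 4 with 1 tumor left out. The share of all genes 2-fold apart, 42.7%, was between 23.0% and 31.0% with 1 tumor left out, where fewer tumors are compared. It was 24.6% with no filter on low values, where genes with few reads enter, and 34.4% for genes with a mean FPKM above 1. The share rose to 47.1% after rescaling to sums of 1000000 and to 53.6% after scaling to the CD3 genes. With factors that set the median ratio of all genes equal it was 40.7%. Of 56 alternative means of single chains, 48 moved by less than the spread between tumors. The 8 others are those after rescaling to sums of 1000000, which multiplies all values. For most of the 48 this was fixed in advance. With 3 tumors, leaving 1 out cannot move a mean by as much as the SD, and summing repeats left these means unchanged. The mean of Il2ra, 18.4 FPKM and 5.97 without tumor 1, is among the 48. Of 64 alternative ratios of the highest to the lowest tumor, 59 kept their side of 2-fold, and the 5 others are those given for Il2rb, Il9r and Il15ra above. Depth limits the values of Il7r in tumor 2, with 39 reads, and of the cytokine genes, with at most 132.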
